A study of Mus musculus with 12 samples.

Results

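Serine, glycine, proline and asparagine can be made by macrophages themselves, and the mRNAs of 10 genes of that synthesis were followed here in bone marrow-derived macrophages (BMDMs) with and without Nlrp3. The 10 genes were Phgdh, Psat1, Psph, Shmt1, Shmt2, Mthfd2, Asns, Aldh18a1, Pycr1 and Atf4, taken by gene symbol from the 55335 genes of the expression table. All 10 were found, and all 10 were among the 12622 genes with at least 1 FPKM in at least 3 of 12 libraries, which were the genes tested. FPKM is a count of sequenced fragments divided by transcript length and by the size of the library. The genes were chosen by their roles with earlier FPKM differences between these same groups already known. Their fold changes and calls are therefore a description of these libraries and give no independent evidence of a direction.

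The 12 libraries fell into 4 groups of 3. BMDMs were grown in macrophage colony-stimulating factor from the marrow of wild-type C57BL/6 mice or of Nlrp3-/- mice, a germline knockout bought from a supplier, and the methods give 8 weeks as the age of the mice for BMDM culture. Each genotype was left untreated (control) or was primed with lipopolysaccharide (LPS) and then given ATP, which is the classical route to assembly of the NLRP3 inflammasome, the complex that activates caspase-1. The labels give 4 h of LPS and 30 min of ATP, while the study's methods state longer times for both. No source says whether the 3 libraries of a group came from separate mice, so the spread between them may be technical. Nlrp3 itself was at 0 FPKM in all 6 Nlrp3-/- libraries, between 9.24 and 10.1 in wild-type control libraries and between 32.1 and 33.6 in wild-type LPS+ATP libraries.

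The de novo serine pathway branches from glycolysis at 3-phosphoglycerate. PHGDH oxidizes it, PSAT1 transaminates the product and PSPH removes the phosphate to give serine. SHMT1 in the cytosol and SHMT2 in mitochondria then split serine into glycine and a carbon unit carried by folate, which MTHFD2 oxidizes further in mitochondria. ALDH18A1 and PYCR1 make proline from glutamate, and ASNS makes asparagine from aspartate and glutamine. ATF4 is the transcription factor of the integrated stress response that activates many of these genes when amino acids are scarce or the endoplasmic reticulum is stressed, and its own output is controlled largely at translation. In activated macrophages, serine and one-carbon metabolism is known for feeding glutathione and S-adenosylmethionine synthesis.

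Short promoter stretches of 3 of the genes are shown because they hold letters of motifs tied to regulators of amino acid synthesis. The promoter window ran from 250 bases before to 50 bases after each RefSeq start on GRCm38.p6, and 11 windows matched the 10 genes. TGATGNAA, the core of the C/EBP-ATF response element to which ATF4 binds with C/EBP partners, was searched on both strands. It was present in 3.97% of 32851 promoter windows and, among the 10 genes, in those of Asns and Pycr1. CACGTG, the E-box read by MYC and MAX among others, was present in 7.15% of the windows and, among the 10, in that of Aldh18a1. The capitals mark the motif. The Asns stretch is on the minus strand of chr6:7693214-7693243, with the motif starting 23 bases before the RefSeq start and inside a GENCODE transcript of the gene. The Pycr1 stretch is on the minus strand of chr11:120643809-120643886, with the motif 103 bases before the start. The Aldh18a1 stretch is on the minus strand of chr19:40588482-40588557, with the motif 59 bases before the start. Both lie upstream of every annotated transcript of their gene.
Asns: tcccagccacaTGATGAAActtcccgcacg
Pycr1: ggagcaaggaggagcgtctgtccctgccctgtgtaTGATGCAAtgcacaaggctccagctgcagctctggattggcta
Aldh18a1: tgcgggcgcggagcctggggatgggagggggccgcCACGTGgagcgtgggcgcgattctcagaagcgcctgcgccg
These matches describe the letters only. Binding of any factor was not measured in these libraries.

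In control BMDMs, 7 of the 10 genes were higher in Nlrp3-/- than in wild-type by the criterion used throughout, which was a Benjamini-Hochberg adjusted p under 0.05 in limma and a difference of at least 1 in log2(FPKM + 1). They were Phgdh, Psat1, Psph, Shmt2, Asns, Aldh18a1 and Pycr1, and none was lower. Pycr1 was under 1 FPKM in every wild-type library and entered the tested genes through the Nlrp3-/- libraries alone, where it is high. Its calls in both states are counted with that limit. Among all genes tested, 6.02% were called higher and 0.689% lower in the same comparison. After LPS+ATP, 6 of the 10 were higher in Nlrp3-/- (the same genes without Asns) and none was lower, against 4.48% of all genes higher and 0.570% lower. The median difference of the 10 genes was 1.15 in control and 1.11 in LPS+ATP BMDMs on the log2(FPKM + 1) scale, beside 0.09 and 0.11 over all genes tested. By separation alone, 9 of the 10 had every Nlrp3-/- control library above every wild-type control library, which 38.0% of all genes tested also showed. After LPS+ATP this held for 7 of the 10 and for 41.7% of all genes. Markers of other cells moved with genotype in the same libraries. The summed FPKM of fibroblast markers was 7.36 times higher in Nlrp3-/- control and 4.94 times higher in Nlrp3-/- LPS+ATP cells than in wild-type, and that of neutrophil and granulocyte precursor markers 5.79 and 2.00 times. Without Lcn2, which LPS+ATP raised in wild-type cells and which then made up most of the wild-type sum, the latter ratios were 5.85 and 4.44. The summed macrophage markers other than Lyz2, a sum made up mostly of Cd68, were 0.649 and 0.771 times the wild-type level. Their part in the differences of the 10 genes was not tested.

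**Figure D1:**
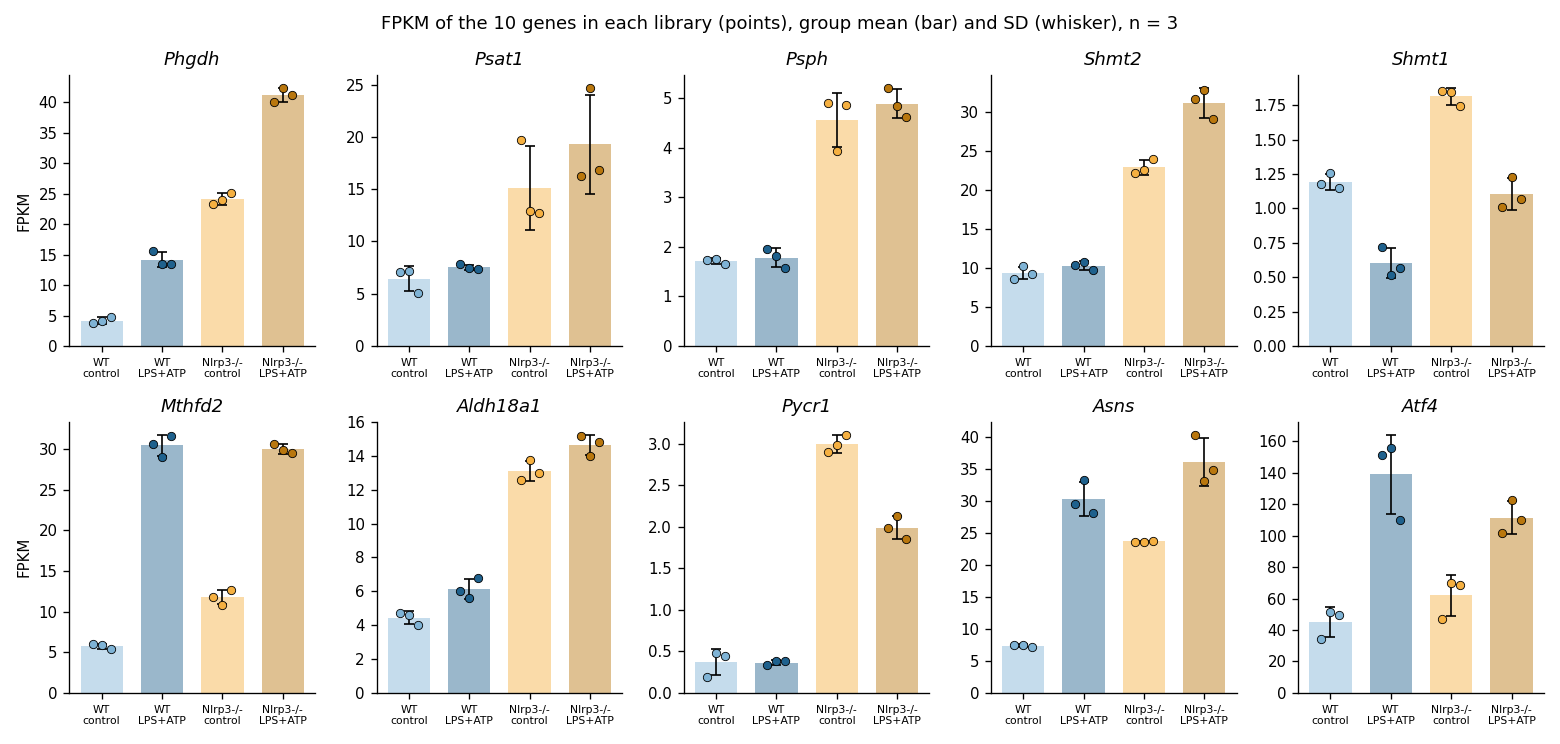
FPKM of each of the 10 genes in the 12 libraries, on a linear axis from 0, with points for libraries, bars for the mean of 3 libraries and whiskers for the SD. Phgdh, Psat1, Psph, Shmt2, Aldh18a1 and Pycr1 are higher in both Nlrp3-/- groups than in both wild-type groups, whereas Mthfd2, Asns and Atf4 are at overlapping levels in the 2 LPS+ATP groups.

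The genes called for LPS+ATP matched those called for genotype only in part, with Phgdh and Asns in both. In wild-type BMDMs, 4 of the 10 genes rose (Phgdh, Mthfd2, Asns and Atf4) and none fell, where 8.25% of all genes rose and 11.2% fell. In Nlrp3-/- BMDMs, Mthfd2 alone of the 10 rose and none fell, where 6.64% of all genes rose and 8.21% fell. That count is near the share over all genes and is no result about the 10. The difference between the genotypes in the response to LPS+ATP was tested as an interaction term. It was called for Asns alone among the 10, with a smaller increase in Nlrp3-/-, and it was called lower for 1.43% and higher for 0.721% of all genes. With no fold limit the term was called for 5 of the 10 genes and for 27.7% of all genes. These 5 include Pycr1, which was tested through the Nlrp3-/- libraries alone.

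Phgdh, the enzyme that commits 3-phosphoglycerate to serine synthesis, had the largest genotype difference of the 10 in control cells on the log2(FPKM + 1) scale (2.28 ± 0.08 SE). Wild-type control libraries held 3.71, 4.04 and 4.81 FPKM, and Nlrp3-/- control libraries 23.3, 23.9 and 25.1 FPKM. After LPS+ATP the wild-type libraries held 15.6, 13.5 and 13.5 FPKM and the Nlrp3-/- libraries 40.0, 42.3 and 41.2 FPKM. The 4 groups did not overlap, and within each state the Nlrp3-/- libraries were higher, with the wild-type LPS+ATP libraries below those of untreated Nlrp3-/- cells. The ratio of means between the genotypes was 5.76 in control and 2.90 after LPS+ATP. Stimulation raised the wild-type mean 3.39-fold. In Nlrp3-/- cells the mean was 1.71-fold higher after LPS+ATP, a log2 difference of 0.75 that was under the fold limit. The interaction term of Phgdh was -0.80 (95% interval -1.04 to -0.56).

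Phgdh has 8 near copies in the mouse genome annotation with at least 95% identity over at least 20% of its longest transcript, so reads may be split among them depending on how the authors counted. The closest in level, Gm7901, is 98.7% identical over 1597 aligned bases. It held 0.163 to 0.507 FPKM in wild-type control, 1.19 to 1.42 in wild-type LPS+ATP, 1.95 to 2.38 in Nlrp3-/- control and 3.35 to 3.97 in Nlrp3-/- LPS+ATP libraries, the same order of groups as Phgdh. The other copies in the table reached at most 0.215 FPKM.

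Psat1, which passes an amino group from glutamate to the product of PHGDH, held 5.11 to 7.20 FPKM in wild-type control and 7.35 to 7.82 FPKM in wild-type LPS+ATP libraries. The Nlrp3-/- control libraries held 19.7, 12.9 and 12.7 FPKM and the Nlrp3-/- LPS+ATP libraries 16.3, 24.7 and 16.8 FPKM. One library of each Nlrp3-/- group lay well above the other two, and the SDs of 4.01 and 4.71 FPKM (n = 3) were the largest of the 9 enzymes. The genotype ratio of means was 2.34 in control and 2.55 after LPS+ATP. The call in control cells was lost without wild-type control replicate 3 (log2 difference 0.96) or without Nlrp3-/- control replicate 1 (0.90). The stimulation differences of Psat1 were 0.21 in wild-type (95% interval -0.20 to 0.62) and 0.34 in Nlrp3-/- cells (-0.08 to 0.75), and neither was called. In wild-type every LPS+ATP library was above every control library, while the Nlrp3-/- groups overlapped.

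Psph, the phosphatase that releases serine, was low in every library. Its levels were 1.65 to 1.76 FPKM in wild-type control, 1.57 to 1.95 in wild-type LPS+ATP, 3.94 to 4.89 in Nlrp3-/- control and 4.62 to 5.21 in Nlrp3-/- LPS+ATP libraries. Both Nlrp3-/- groups lay above both wild-type groups, while control and LPS+ATP overlapped within each genotype. The genotype ratio was 2.66 in control and 2.75 after LPS+ATP. In control cells the log2 difference of 1.03 fell below the limit to 0.99 without Nlrp3-/- control replicate 1 or replicate 3.

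The serine hydroxymethyltransferases differed in level and in response. Shmt2, the mitochondrial enzyme, held 8.61, 10.2 and 9.19 FPKM in wild-type control and 10.3, 10.8 and 9.74 FPKM in wild-type LPS+ATP libraries. In Nlrp3-/- libraries it held 22.2, 22.5 and 24.0 FPKM in control and 31.6, 32.8 and 29.1 FPKM after LPS+ATP. The wild-type groups overlapped, and the Nlrp3-/- groups stood apart from them and from each other. The genotype ratio was 2.45 in control and 3.03 after LPS+ATP. Shmt2 was the sole gene of the 10 with an interaction interval above 0, at 0.30 (95% interval 0.10 to 0.50).

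Shmt1, the cytosolic enzyme, was at 1.15 to 1.26 FPKM in wild-type control, 0.519 to 0.723 in wild-type LPS+ATP, 1.74 to 1.85 in Nlrp3-/- control and 1.01 to 1.23 in Nlrp3-/- LPS+ATP libraries. It was the lowest of the 10 in both Nlrp3-/- groups. Its means after LPS+ATP were 0.505 times control in wild-type and 0.608 times control in Nlrp3-/- cells. On the log2(FPKM + 1) scale, which compresses changes at such levels, none of its differences reached the fold limit (-0.45 and -0.42 for stimulation, 0.36 and 0.39 for genotype).

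Mthfd2, the mitochondrial methylenetetrahydrofolate dehydrogenase, had the largest response to LPS+ATP of the 10 genes. Wild-type libraries went from 5.97, 5.87 and 5.37 FPKM in control to 30.7, 29.1 and 31.7 FPKM after LPS+ATP, a 5.31-fold higher mean. Nlrp3-/- libraries went from 11.8, 10.9 and 12.6 FPKM to 30.7, 29.9 and 29.5 FPKM, a 2.55-fold higher mean. The control groups stood apart and the LPS+ATP groups overlapped. The genotype difference was 0.92 in control cells, just under the fold limit, and -0.02 after LPS+ATP (95% interval -0.14 to 0.10). With a pseudocount of 0.1 or with TPM scaling the difference in control cells passed the limit at 1.02 and 1.01. The interaction term was -0.94 (95% interval -1.12 to -0.77) and passed the limit under the same settings, at -1.04 and -1.0.

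The proline genes showed a genotype difference, and neither passed the criterion for stimulation in either genotype. Aldh18a1, the bifunctional synthase that activates and reduces glutamate, held 4.03 to 4.71 FPKM in wild-type control, 5.59 to 6.78 in wild-type LPS+ATP, 12.6 to 13.8 in Nlrp3-/- control and 14 to 15.2 in Nlrp3-/- LPS+ATP libraries. No groups overlapped. The genotype ratio was 2.95 in control and 2.39 after LPS+ATP, and the stimulation differences were 0.39 in wild-type and 0.15 in Nlrp3-/- cells, under the fold limit.

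Pycr1, the mitochondrial reductase of the last step to proline, had the largest ratio between genotypes and was the lowest of the 10 in wild-type cells. Wild-type libraries held 0.192, 0.480 and 0.440 FPKM in control and 0.335, 0.381 and 0.379 FPKM after LPS+ATP, all under 1 FPKM. Nlrp3-/- libraries held 2.90, 2.98 and 3.11 FPKM in control and 1.98, 2.13 and 1.86 FPKM after LPS+ATP. The genotypes did not overlap, and within Nlrp3-/- every LPS+ATP library was below every control library. The ratio of means was 8.09 in control and 5.45 after LPS+ATP, while the differences on the log2(FPKM + 1) scale were 1.55 and 1.13. Because Pycr1 passed the filter on low values only through the Nlrp3-/- libraries, its wild-type level rests on few fragments and the ratios are imprecise.

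Other members of these enzyme families were looked up after the values of the 10 genes were seen. In wild-type and Nlrp3-/- control cells Pycrl, the cytosolic reductase, averaged 9.98 and 9.96 FPKM. After LPS+ATP it averaged 4.87 and 7.34 FPKM. It did not pass the call for genotype in either state. Mthfd1l, which works next to MTHFD2 in the mitochondrial folate pathway, averaged 4.40 and 9.0 FPKM in control cells of the genotypes, a log2 difference of 0.89 under the limit. After LPS+ATP it averaged 11.1 and 14.3 FPKM. Cytosolic Mthfd1 was lower after LPS+ATP, from 6.33 to 2.62 FPKM in wild-type, which passed the call, and from 7.47 to 4.93 FPKM in Nlrp3-/- cells, which did not.

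Asns, the asparagine synthetase, was the gene whose genotype difference depended most on the state of the cells. Wild-type control libraries held 7.44, 7.53 and 7.14 FPKM and Nlrp3-/- control libraries 23.6, 23.6 and 23.8 FPKM. After LPS+ATP the wild-type libraries held 29.6, 33.3 and 28.2 FPKM and the Nlrp3-/- libraries 40.4, 33.1 and 34.9 FPKM. The control groups were far apart, and the LPS+ATP groups overlapped by 1 library of each. The genotype ratio of means was 3.22 in control and 1.19 after LPS+ATP. LPS+ATP raised the wild-type mean 4.12-fold, and the Nlrp3-/- mean was 1.53-fold higher, under the fold limit. The interaction term was -1.32 (95% interval -1.54 to -1.09).

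Atf4 was the most abundant of the 10 mRNAs and had the largest SDs, from 9.47 to 25.5 FPKM (n = 3). Wild-type libraries held 34.3, 51.7 and 49.4 FPKM in control and 151, 156 and 109.7 FPKM after LPS+ATP. Nlrp3-/- libraries held 47.1, 70.2 and 68.9 FPKM in control and 101.9, 122.8 and 110.0 FPKM after LPS+ATP. The genotypes overlapped in both states, and control and LPS+ATP did not overlap in either genotype. The genotype difference was 0.45 in control (95% interval 0.02 to 0.88, not called) and -0.30 after LPS+ATP (-0.73 to 0.13). LPS+ATP raised the wild-type mean 3.08-fold. The Nlrp3-/- mean was 1.80-fold higher, a log2 difference of 0.85 under the limit. ATF4 protein and its activity were not measured.

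**Figure D2:**
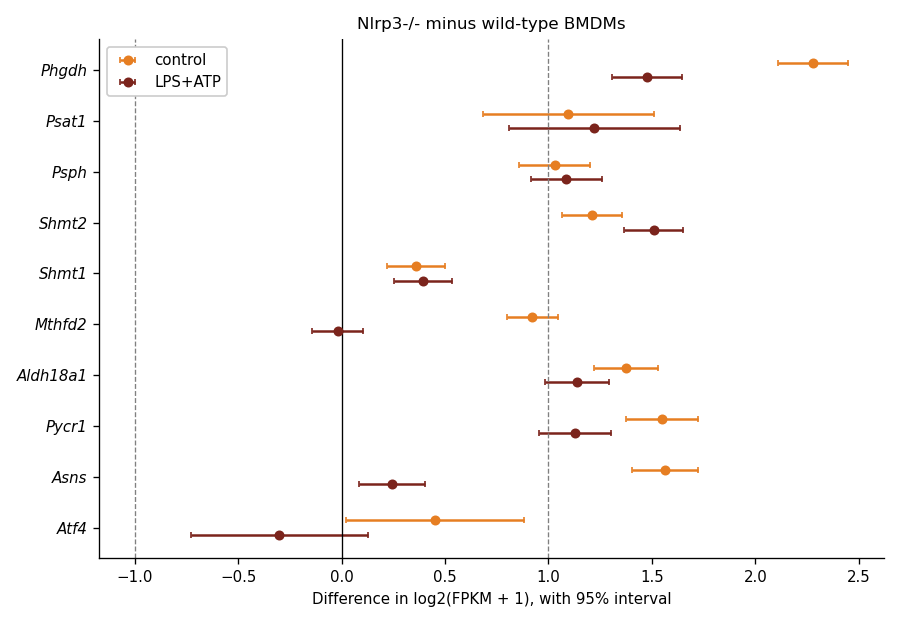
Difference in log2(FPKM + 1) between Nlrp3-/- and wild-type BMDMs for each gene, in control (orange) and LPS+ATP (dark red) cells, with bars for the 95% interval of the limma fit and dashed lines at the fold limit of 1 in either direction. Phgdh lies at 2.28 and 1.48, whereas Mthfd2, Asns and Atf4 lie at -0.02, 0.24 and -0.30 after LPS+ATP.

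**Figure D3:**
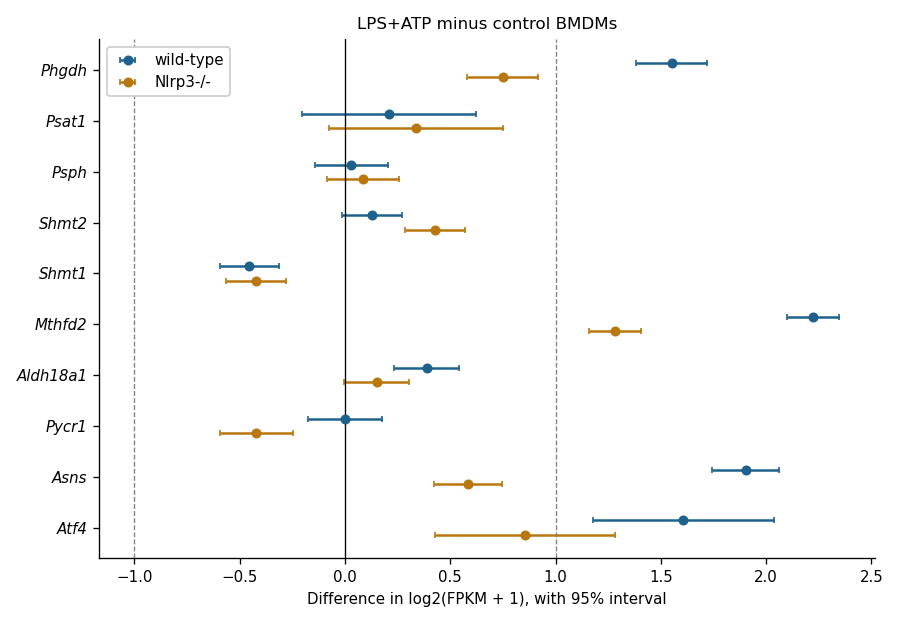
Difference in log2(FPKM + 1) between LPS+ATP and control BMDMs for each gene, in wild-type (blue) and Nlrp3-/- (ochre) cells, with 95% intervals and dashed lines at the fold limit of 1. Mthfd2 is past the limit in both genotypes at 2.22 and 1.28, and Phgdh, Asns and Atf4 are past it in wild-type cells at 1.55, 1.90 and 1.61.

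The choice of scaling moved some of these calls. Median-ratio scaling sets the typical gene equal between libraries, among genes above 0 in all 12 libraries. Over the genes tested it shifted the median genotype difference by -0.16 in control and -0.17 in LPS+ATP cells, to -0.07 in both. For stimulation in wild-type and Nlrp3-/- cells the shifts were 0.25 and 0.24. Under this scaling 5 of the 10 genes were called higher in Nlrp3-/- control cells, since Psat1 (0.91) and Psph (0.86) fell below the limit. After LPS+ATP 4 were called, since Psph and Aldh18a1 (both 0.95) fell below it. In Nlrp3-/- cells 3 genes rose with LPS+ATP in place of 1, with Phgdh at 1.04 and Atf4 at 1.15. Over all genes the split of higher against lower calls was 1041 against 1411 for stimulation in wild-type and became 1396 against 891. In Nlrp3-/- cells it was 838 against 1036 and became 1091 against 597. For genotype it was 760 against 87 in control cells and became 571 against 145, and after LPS+ATP it was 565 against 72 and became 429 against 125.

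The wider network was read from 8 lists of other genes. Some genes are in more than 1 list and are counted in each. Over all genes tested, 6.02% were called higher in Nlrp3-/- control cells and 4.48% after LPS+ATP. Other targets of ATF4 were the list with the most calls between genotypes in control cells. Of these, 5 of 14 tested genes were higher in Nlrp3-/- and none was lower, with a median log2 difference of 0.82 beside 0.09 for all genes. Aldh1l2, the mitochondrial formyltetrahydrofolate dehydrogenase, averaged 1.18 ± 0.10 and 10.5 ± 0.57 FPKM (SD, n = 3) in wild-type and Nlrp3-/- control cells (log2 difference 2.40 ± 0.05 SE, limma adjusted p = 4.37e-11). Trib3, a pseudokinase that restrains ATF4 signalling, averaged 3.25 and 14.5 FPKM (1.87 ± 0.08 SE, limma adjusted p = 7.12e-09). After LPS+ATP 3 of the 14 were higher, including Aldh1l2 at 1.64 and Cth, the enzyme that makes cysteine from cystathionine, at 1.36, and the median was 0.75. Cth was under 1 FPKM in all 6 wild-type libraries and passed the filter on low values through the Nlrp3-/- libraries alone. Of 13 regulators of the integrated stress response, 1 was higher in control cells (Nupr1 at 1.30) and none after LPS+ATP. These counts are near the shares over all genes and are no result about that list.

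Amino acid transporters included 4 of 17 genes that were higher in Nlrp3-/- control cells and 3 that were higher after LPS+ATP, with none lower. The shares of all genes called higher were 6.02% and 4.48%. The median difference of the transporters was 0.52 in control cells and 0.07 after LPS+ATP, beside 0.09 and 0.11 for all genes. Slc7a5, the light chain of the LAT1 transporter for large neutral amino acids, averaged 4.60 and 20.97 FPKM in wild-type and Nlrp3-/- control cells and 8.98 and 28.1 FPKM after LPS+ATP (log2 differences of 1.99 and 1.54). Slc1a4, an exchanger of serine and other small neutral amino acids, averaged 2.10 and 10.3 FPKM in control and 3.61 and 12.1 FPKM after LPS+ATP (1.87 and 1.51). Both were past the criterion in both states. Of the 20 cytosolic aminoacyl-tRNA synthetases, which charge tRNAs and include many ATF4 targets, none passed the criterion for genotype. Of these, 19 had a positive difference in control cells, with a median of 0.42 beside 0.09 for all genes. After LPS+ATP 18 did, with a median of 0.27 beside 0.11. The share of positive differences over all genes was not counted.

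The enzyme lists next to the 10 genes and the MYC and MAX network were read in the same way. Over all genes, 6.02% were called higher in control cells and 4.48% after LPS+ATP. The genotype calls in these lists are few for lists this short and are no result about the lists. Among 19 other serine, glycine and one-carbon enzymes, 2 were higher in Nlrp3-/- control cells and 3 after LPS+ATP, with none lower. Aldh1l2 and, after LPS+ATP, Cth are among them and are also counted in the list of other ATF4 targets. Besides Aldh1l2, Gcsh of the glycine cleavage system was higher in both states (1.12 and 1.49). Among 12 other proline, glutamate and ornithine enzymes, 2 were higher in control cells and 1 after LPS+ATP. P4ha2, a collagen prolyl hydroxylase subunit, was higher in both states (1.64 and 1.31). Arg1, the arginase that makes ornithine, averaged 1.14 and 12.6 FPKM in control cells and 16.4 and 20.9 FPKM after LPS+ATP, with differences of 2.67 and 0.33. Among 10 other asparagine, aspartate and alanine enzymes, none was called in control cells and Cad, which starts pyrimidine synthesis, was called higher after LPS+ATP (1.01). In control cells the difference of Cad was 0.70, under the fold limit. Of 7 genes of the MYC and MAX network, none was called in control cells and Myc was called higher after LPS+ATP. The difference of Myc was 0.99 in control cells (means of 4.75 and 10.42 FPKM), just under the fold limit. After LPS+ATP it was 1.20 (means of 2.57 and 7.18 FPKM).

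With LPS+ATP the share of all genes that rose was 8.25% in wild-type and 6.64% in Nlrp3-/- cells, and 11.2% and 8.21% fell. Among the other ATF4 targets 7 of 14 rose and none fell in wild-type cells, and 3 rose in Nlrp3-/- cells. Slc7a11, the cystine importer, rose from 2.35 to 97.0 FPKM in wild-type and from 4.58 to 85.2 FPKM in Nlrp3-/- cells. Of the stress response regulators 5 of 13 rose in wild-type and 3 in Nlrp3-/- cells, led in wild-type by Cebpb (log2 difference 2.41) and Ppp1r15a (1.84), and Eif2ak3, which encodes the kinase PERK, fell in wild-type cells by 1.14. Among transporters 6 of 17 rose and 1 fell in wild-type, and 4 rose in Nlrp3-/- cells, led by Slc7a2, an importer of arginine, at 6.77 and 5.38. The synthetases had 2 rises in wild-type, Wars at 1.31 and Aars at 1.19, and 1 in Nlrp3-/- cells, Wars at 1.22.

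Among the 19 one-carbon enzymes 2 rose and 4 fell in wild-type, and 1 rose and 1 fell in Nlrp3-/- cells. Over all genes 8.25% rose and 11.2% fell in wild-type, and 6.64% and 8.21% in Nlrp3-/- cells. The rises among one-carbon enzymes, the 20 synthetases, the 10 asparagine, aspartate and alanine enzymes and the 7 MYC network genes are near those shares. So are the rise and the fall among the 12 proline, glutamate and ornithine enzymes in Nlrp3-/- cells. The 2 falls among asparagine, aspartate and alanine enzymes are few for a list this short. These counts are no result about the lists. Mthfd1l rose by 1.17 on the log2 scale in wild-type cells, and Gcat, of threonine breakdown to glycine, fell by 1.64 and 1.16 in wild-type and Nlrp3-/- cells. Of the proline, glutamate and ornithine enzymes 3 rose and 3 fell in wild-type, and 1 rose and 1 fell in Nlrp3-/- cells. Glul, the glutamine synthetase, fell by 2.05 and 2.46. Of the asparagine, aspartate and alanine enzymes 1 rose and 2 fell in each genotype. Ass1, the argininosuccinate synthase that uses aspartate, was the gene that rose (3.96 and 3.12). In the MYC and MAX network 1 rose and 1 fell in wild-type and 1 fell in Nlrp3-/- cells, with Mnt lower in both (-1.46 and -1.08).

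**Figure D4:**
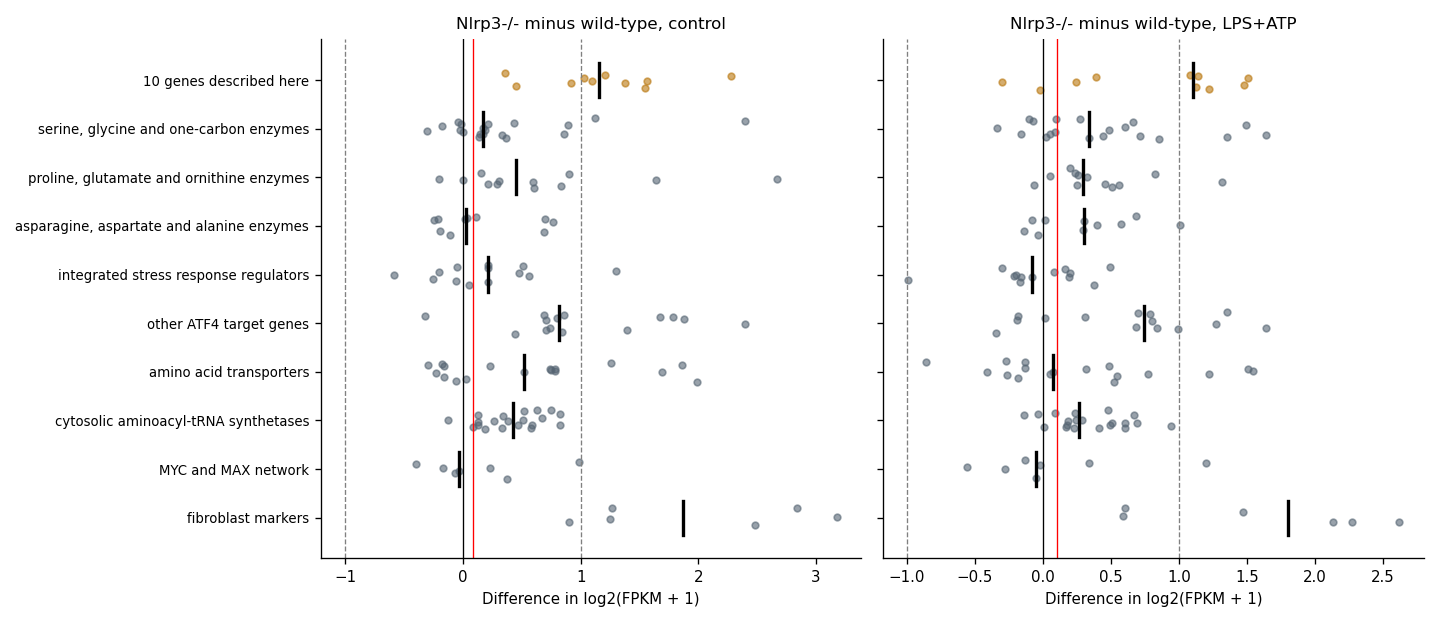
Difference in log2(FPKM + 1) between Nlrp3-/- and wild-type BMDMs in control (left) and LPS+ATP cells (right), with a point for each tested gene of a list, a thick bar for the list median, a red line for the median of all genes tested and dashed lines at the fold limit of 1. The 10 genes have medians of 1.15 and 1.11, the other ATF4 targets 0.82 and 0.75, and the fibroblast markers 1.87 and 1.80.

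The genes whose pattern over the 12 libraries was most like that of 4 of the 10 were found by the mean absolute difference of centred log2(FPKM + 1). For Phgdh they were Plod2 (0.13), Plac8 (0.14) and Ctgf (0.14). For Asns they were Glipr2 (0.08), Filip1l (0.11) and Antxr1 (0.16), and for Pycr1 Adamts5 (0.06), Efemp2 (0.07) and Anxa8 (0.08). Anxa8 averaged 0.21 and 0.15 FPKM in wild-type control and LPS+ATP cells. It passed the filter on low values through the Nlrp3-/- libraries alone. For Atf4 they were Gm12346, Psmd11 and Tnfsf9 at 0.17 to 0.18.

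The cell type markers were summed in each library. The macrophage markers Adgre1, Csf1r, Cd68, Itgam, Mertk and Lyz2 summed to 19780 to 20920 FPKM in wild-type and 18910 to 19150 FPKM in Nlrp3-/- control libraries, and to 10970 to 11060 and 10390 to 10660 FPKM after LPS+ATP. Every Nlrp3-/- sum was below every wild-type sum of its state, and Lyz2 made up most of each. The other 5 summed to 2052 to 2089 FPKM in wild-type and 1286 to 1373 FPKM in Nlrp3-/- control libraries, and to 1519 to 1565 and 1177 to 1221 FPKM after LPS+ATP. Cd68 made up most of these sums. In wild-type and Nlrp3-/- control cells Cd68 averaged 1450 and 877 FPKM and Csf1r 253 and 165 FPKM, without overlap between libraries. Adgre1 averaged 237 and 184 FPKM, also without overlap. Mertk was slightly higher in every Nlrp3-/- control library (means of 32.35 and 34.05 FPKM), and Itgam and Lyz2 overlapped. After LPS+ATP Csf1r overlapped too, at 178 and 176 FPKM. All 6 fibroblast markers (Col1a1, Col1a2, Col3a1, Dcn, Lum and Pdgfra) were higher in every Nlrp3-/- library than in every wild-type library of the same state. Their sum was 157 to 162 FPKM in wild-type control and 1165 to 1182 FPKM in Nlrp3-/- control libraries, and 181 to 183 and 891 to 907 FPKM after LPS+ATP. The 7 markers of neutrophils and granulocyte precursors summed to 233 to 265 and 1416 to 1461 FPKM in control libraries and to 307 to 318 and 622 to 623 FPKM after LPS+ATP. Without Lcn2 the sums after LPS+ATP were 86.1 to 101.5 and 404 to 428 FPKM. These sums without a leading gene were added after the values were seen. No marker of these lists was at 0 in all libraries. In bulk RNA, more cells of a type and more RNA per cell cannot be told apart.

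**Figure D5:**
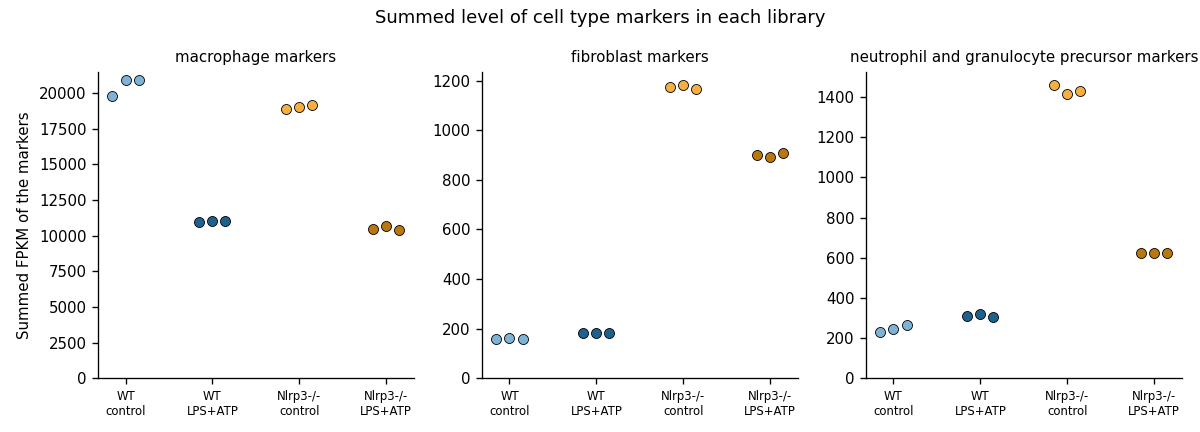
Summed FPKM of 6 macrophage, 6 fibroblast and 7 neutrophil and granulocyte precursor markers in each library, on linear axes from 0. Within a state the macrophage sums of every Nlrp3-/- library lie below those of every wild-type library, and the fibroblast and granulocyte sums lie above them.

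Cycling cell markers summed to 157 to 161 FPKM in wild-type and 129 to 133 FPKM in Nlrp3-/- control libraries, and to 53.9 to 56.4 and 63.9 to 69.3 FPKM after LPS+ATP. Pcna made up most of these sums, and the other 5 markers summed to 48.7 to 51.2 and 55.3 to 59.1 FPKM in control and to 20.4 to 22.4 and 29.4 to 29.9 FPKM after LPS+ATP. After LPS+ATP 3 of the 6 cycling markers (Top2a, Ccnb1 and Mcm5) were called higher in Nlrp3-/- cells, against 4.48% of all genes. The median log2 difference of the 6 was 0.99. Mki67 went the other way, with means of 16.1 and 11.4 FPKM in wild-type and Nlrp3-/- cells and a difference of -0.46. Dendritic cell markers summed to at most 5.49 FPKM and B and T cell markers to at most 1.55 FPKM. These low sums were also higher in Nlrp3-/- cells, without overlap between genotypes. The ratios in control and LPS+ATP cells were 3.09 and 1.80 for dendritic cell markers and 3.37 and 2.79 for B and T cell markers. Of the 4 dendritic cell markers 1 passed the filter on low values, and of the 4 B and T cell markers none did. The genotypes also differed in sex, with Xist at 32.8 to 56.3 FPKM in Nlrp3-/- and at most 0.0416 FPKM in wild-type libraries and Ddx3y at 0 in Nlrp3-/- and 7.73 to 10.9 FPKM in wild-type libraries. Genotype and sex of the mice cannot be told apart in this design. FPKM summed to 283278 to 299393 per library and 21122 to 22613 genes were above 0. The smallest steps in the values put relative depth within a factor of 1.22, with both the shallowest and the deepest library in the wild-type control group, and depth in fragments is unknown. Libraries of a group correlated at 0.990 to 0.993 across genes, which are not independent replicates.

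By the GENCODE annotation of GRCm38, which may not be the build behind the table, the 10 genes are spread over several chromosomes. Phgdh is on chromosome 3 (98313170 to 98339990), Asns and Mthfd2 on chromosome 6 (7675169 to 7693254 and 83305691 to 83325908), Shmt2 on 10 (127517123 to 127522444), and Shmt1 and Pycr1 on 11 (60788104 to 60811718 and 120635712 to 120643769). Atf4 is on 15 (80255184 to 80257541), Psat1 and Aldh18a1 are on 19 (15904678 to 15947337 and 40550257 to 40588463), and Psph is on 5 (129765558 to 129787449). Psat1, Psph, Shmt1 and Shmt2 overlap a gene on the other strand and Mthfd2 and Aldh18a1 one on their own strand. Whether the counting used strand is not given in the sources used here, so reads of overlapping stretches could belong to either gene.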

How the data were processed

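Total RNA of BMDMs was extracted with Trizol and sequenced from TruSeq libraries. The authors deposited a single table of FPKM values per gene and library. The submitters' processing notes name GRCm39 and DESeq2 1.24.0, and the aligner, the counter and the annotation are not given in the sources used here. All 12 libraries were used, each in the group that its label gives, and 0 columns of values were left unused.

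Genes with at least 1 FPKM in at least 3 libraries were analysed with limma 3.58.1 (R 4.3.3), with a variance trend, on log2(FPKM + 1), which understates changes of low genes. A mean was fitted per group, with 8 residual degrees of freedom before moderation, and p-values were adjusted by Benjamini-Hochberg over all genes tested. Counts cannot be recovered from the FPKM values, so no count model was run. The 5 comparisons were stimulation in each genotype, genotype in each state, and their interaction. The code was tested on simulated data. The members and lists were chosen with earlier results of these data known. Genes named from a list are the called genes with at most the 2 largest rises and 2 largest falls per comparison, and the isoenzymes were added after values were seen. Some genes that this rule or that addition names are not reported here. Near copies were found with blastn 2.17.0+ among GENCODE M21 transcripts. Of the 55335 gene identifiers, 55154 matched that annotation. Promoter sequences are from RefSeq on GRCm38.p6. Alternatives changed the pseudocount, the filter, the scaling, the samples in the fit, the variance trend, the fold limit, the replicate block and single libraries.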

Additional observations from a re-analysis of the deposited data

Results flagged for a closer look

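The genotype effect differed between control and LPS+ATP cells, by limma's interaction term at an adjusted p under 0.05, for 5 of the 10 genes, as it did for 27.7% of all genes tested. The term was -0.80 for Phgdh, -0.94 for Mthfd2, -1.32 for Asns and -0.42 for Pycr1, where the genotype effect was smaller after LPS+ATP, and 0.30 for Shmt2, where it was larger. Among the named genes of the lists the term also reached the fold limit for Arg1 (-2.34), Trib3 (-1.17) and Slc7a2 (-1.39). All values are differences in log2(FPKM + 1), and those of Phgdh, Mthfd2, Pycr1 and Shmt2 were under the fold limit of 1. Pycr1 was under 1 FPKM in every wild-type library and passed the filter on low values through the Nlrp3-/- libraries alone. Its stimulation difference was 0.0005 in wild-type and -0.42 in Nlrp3-/- cells, so its term reflects the Nlrp3-/- libraries.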

How the results depend on the processing

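Of 975 recomputed values of the 10 genes, 951 kept their direction and side of the criterion, 8 lost the call, 6 gained it and 10 changed sign. The sign changed for values that were between -0.02 and 0.13. For stimulation in wild-type, Pycr1 became -0.10 without wild-type control replicate 1 and -0.01 without wild-type LPS+ATP replicate 2 or 3 (-0.0077 and -0.0070), and Psph -0.0142 without wild-type LPS+ATP replicate 1. For genotype after LPS+ATP, Mthfd2 became 0.0031 with TPM scaling and 0.0089 without wild-type LPS+ATP replicate 3. The interaction became -0.0054 and -0.0113 for Shmt1 without wild-type or Nlrp3-/- LPS+ATP replicate 2, -0.0289 for Psph without Nlrp3-/- control replicate 2 and -0.0575 for Psat1 without Nlrp3-/- LPS+ATP replicate 2. Over all single libraries left out, these values ran up to 0.0592 for Pycr1 and 0.0841 for Psph with stimulation, down to -0.0522 for Mthfd2, and up to 0.0856 for Shmt1, 0.0997 for Psph and 0.322 for Psat1 in the interaction. With no fold limit, 7 of the 10 genes were called for stimulation in Nlrp3-/- cells and 5 for the interaction. Median-ratio scaling called 3 for the former, and a pseudocount of 0.1 or TPM scaling 2 for the latter. Both counts with no fold limit include Pycr1, with the limit on its wild-type level given above. Over all genes, no fold limit gave 9641, 9383, 6035, 6124 and 3494 calls in place of 2452, 1874, 847, 637 and 271 for stimulation in wild-type and Nlrp3-/-, genotype in control and LPS+ATP, and the interaction. A pseudocount of 0.1 gave 3702, 2847, 1428, 1406 and 634, and TPM scaling gave 2933, 1597, 1327 and 605 in the last 4. A filter at 5 FPKM gave 515 for genotype in control and left 7 of the 10 genes tested. Leaving out single libraries gave 5 to 7 of the 10 genes for genotype in control, and changed no other count of the 10. With the replicate number as a block, 2453, 1876, 847, 636 and 268 genes were called, and the counts of the 10 stayed at 4, 1, 7, 6 and 1. Deviations of same-numbered libraries of compared groups correlated at -0.056 to 0.053 over 12 pairs of libraries, so the numbers showed no pairing across all genes. Single genes could differ, and Atf4 was lowest in replicate 1 of both control groups. The depth in fragments is unknown, which limits what can be said of genes near or under 1 FPKM such as Pycr1 and Shmt1.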
